A study of Mus musculus with 18 samples.

Results

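A set of 10 immediate early and stress response genes were followed across fibroblasts, iECs and native endothelial cells of mouse heart and lung: Fos, Fosb, Fosl1, Jun, Junb, Egr1, Atf3, Ier2, Ier3 and Nr4a1. They were taken by symbol, which gave 10 genes of the 35727 in the count table, and all 10 passed the filter on low counts. The set was chosen with earlier results of these data known. Counts of its calls beside the shares of all genes are therefore descriptions. The 18 libraries formed 6 groups of 3, all at day 7 and all in EGM2, an endothelial growth medium: control fibroblasts, iECs and native endothelial cells (ECs) of heart, and the same 3 of lung. The labels give iEC as a cell type and SEG in the sample titles, without the factors or vectors used, the strain or the age of the animals. Per its design text, the series asked how far iECs take on the endothelial identity of their organ. Nothing in the labels says that replicates came from separate cultures or animals. The p-values then measure only how far these libraries spread, which may be technical.

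Immediate early genes are transcribed within minutes of a stimulus, without new protein synthesis, when kinase cascades reach factors already bound at their promoters. Fos and Jun family proteins pair through leucine zippers to form AP-1, Egr1 binds GC-rich sites, and Atf3 is a CREB/ATF family zipper protein induced by stress. In endothelium and fibroblasts these genes respond to growth factors, serum, shear, inflammatory cytokines and the handling of cells.

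The set did not move as a unit. Fos, Egr1, Ier2 and Nr4a1 were higher in iECs than in native ECs of both organs, Fosl1 and Atf3 were lower, and Jun was higher in iECs than in either fibroblasts or ECs of the same organ. Against their own fibroblasts, iECs of the heart had more Fos, Egr1 and Ier2, whereas iECs of the lung had less. Junb spanned only 1.55-fold between its highest and lowest group.

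Library totals ran from 17747632 to 23775372 estimated counts. Levels below are CPM, counts relative to the library total scaled by edgeR's TMM factors (0.8892 to 1.1116), log2 changes come with their SE, and a gene was called at an adjusted p under 0.05 (edgeR's quasi-likelihood test, Benjamini-Hochberg over the 14864 genes tested). Scaling by library totals alone moved the median of all genes furthest in heart iECs against fibroblasts, from 0.02 to 0.21 (log2), and the share of calls that were higher went from between 47.1% and 51.4% across comparisons to between 47.2% and 69.3%. Summed endothelial markers were at 1855 CPM in heart ECs, 2273 in heart iECs, 2830 in lung ECs and 2110 in lung iECs, against 265.4 in heart and 22.66 in lung fibroblasts. All groups also carried fibroblast markers, 25160 CPM in heart ECs against 35250 in heart fibroblasts and 9417 in lung ECs against 44800 in lung fibroblasts. In lung ECs, 13 macrophage and leukocyte markers summed to 8880 to 10500 CPM and the 6 epithelial markers that passed the filter to a mean of 297.5. In lung iECs these sums were 2983 to 4279 and 7.68 CPM, with Sftpc and Sftpb of alveolar epithelium at 0, and in the heart groups 245.8 to 403.9 and 2.634 to 18.93. The 6 mesothelial markers summed to 490.3 CPM in heart ECs against 65.41 in heart fibroblasts and 112.0 in heart iECs, and to 294.9, 46.54 and 247.8 in lung fibroblasts, iECs and ECs. The 6 smooth muscle markers summed to 1302 CPM in heart iECs against 265.9 in heart fibroblasts and 426.6 in heart ECs, and to 3568 in lung iECs against 1068 and 1753. The part of other cells in the values below was not tested. In such bulk samples, fewer cells of a type and less RNA per cell cannot be told apart. Replicate 3 of the lung ECs and replicate 3 of the lung iECs stood apart from their groups in inflammatory genes, and calls of the 10 genes that rest on them are given with and without them.

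For 7 of the 10 genes the RefSeq promoter table (GRCm38.p6) held a window, and the 250 bases before the transcription start of Fos, Nr4a1 and Jun are shown because Fos and Nr4a1 varied together across the groups and Jun did not vary with them. Capitals mark TGACG in either orientation (the core of the CREB/ATF site), TATAAA on the gene's strand and TGACATCA, the AP-1 variant known from the Jun promoter, which was searched with that window in view. The windows lie at chr12:85473640-85473889 on the plus strand (Fos), chr15:101266596-101266845 on the plus strand (Nr4a1) and chr4:95052223-95052472 on the minus strand (Jun), and none overlaps an exon annotated in GENCODE M21. Those of Fos and Jun adjoin the annotated gene. That of Nr4a1 lies within the annotated span of its gene (chr15:101254269-101274795), before an internal start.
Fos: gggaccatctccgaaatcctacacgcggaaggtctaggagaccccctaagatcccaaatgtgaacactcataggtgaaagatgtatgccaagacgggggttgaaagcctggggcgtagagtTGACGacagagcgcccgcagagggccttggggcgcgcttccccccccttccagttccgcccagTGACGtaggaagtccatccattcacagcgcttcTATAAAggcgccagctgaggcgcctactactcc
Nr4a1: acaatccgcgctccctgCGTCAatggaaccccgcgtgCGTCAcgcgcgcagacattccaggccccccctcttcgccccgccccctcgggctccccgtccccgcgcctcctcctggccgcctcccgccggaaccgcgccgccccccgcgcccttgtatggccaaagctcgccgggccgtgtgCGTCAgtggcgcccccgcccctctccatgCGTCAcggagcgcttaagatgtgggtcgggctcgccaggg
Jun: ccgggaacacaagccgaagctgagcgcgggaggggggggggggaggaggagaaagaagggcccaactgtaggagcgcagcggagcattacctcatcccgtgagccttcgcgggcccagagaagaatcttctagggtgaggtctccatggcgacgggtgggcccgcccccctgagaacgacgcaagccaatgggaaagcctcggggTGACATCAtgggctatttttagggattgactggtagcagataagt
TGACG stood 2 times in the Fos window, at -129 to -125 and -66 to -62, and 4 times in that of Nr4a1, at -233, -213, -69 and -40 (first base, counted back from the start). It was present in 5 of the 7 windows (also Fosb, Junb and Atf3) and in 17.77% of the 32851 windows of the table. TATAAA was found at -33 to -28 of Fos alone among the 7, and in 7.59% of all windows. TGACATCA was found at -45 to -38 of Jun alone, and in 2.93% of all windows. The full site TGACGTCA (1.55% of windows), TGANTCA of AP-1 (6.75%), GCGTGGGCG of the EGR factors (0.54%) and the CArG box of serum response factor (1.47%), each searched on both strands, were in none of the 7. TGACG is contained in TGACGTCA. Bases further than 250 before the start were not searched, so an absence holds for the windows alone. These matches describe letters in a window and say nothing of binding in these cells.

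**Figure D1:**
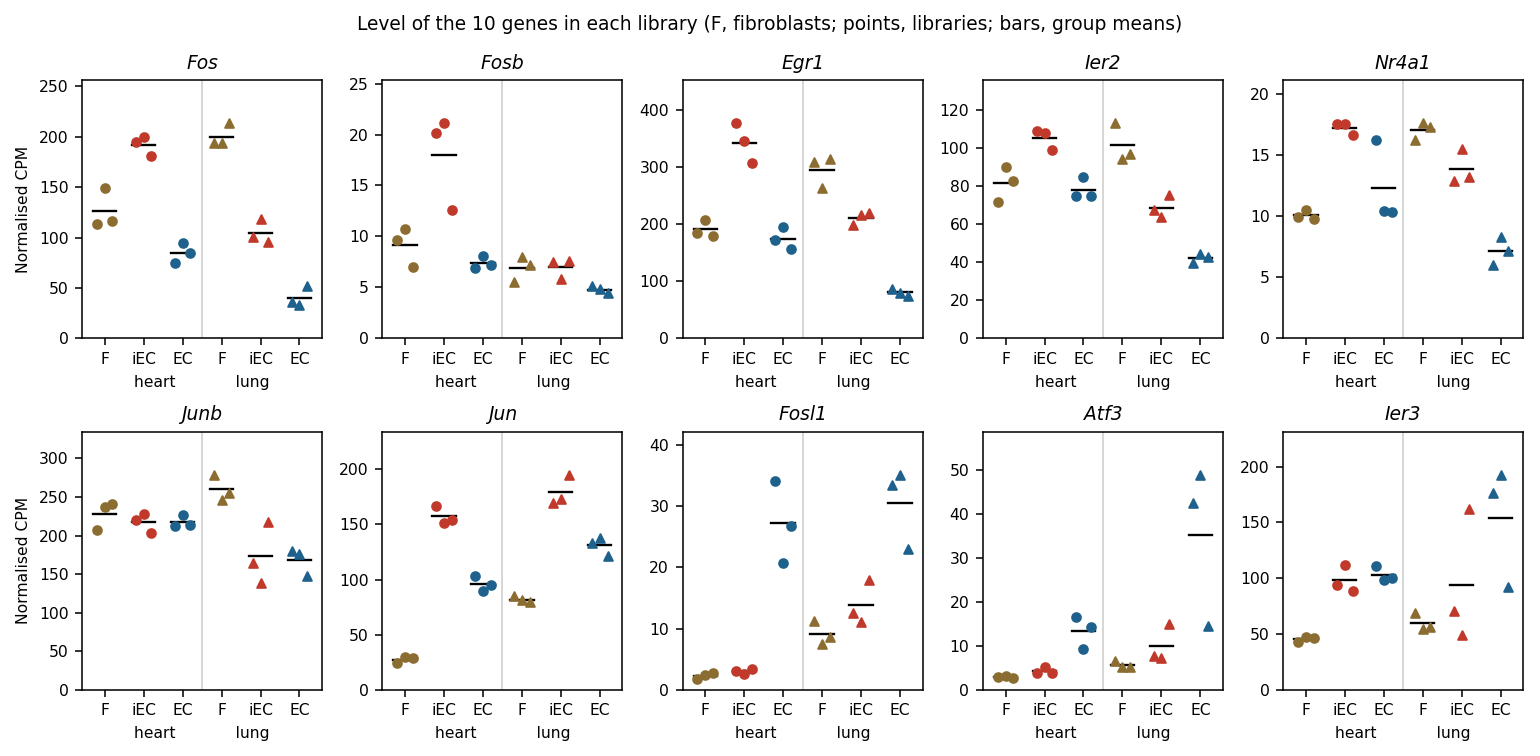
Level of each of the 10 genes in each library (y axis, TMM-scaled CPM from 0; x axis, fibroblasts F, iECs and ECs of heart and of lung; circles, heart libraries; triangles, lung libraries; bars, means of 3). Fos, Egr1, Ier2 and Nr4a1 share an order with heart iECs and lung fibroblasts on top and lung ECs at the bottom, Jun is lowest in heart fibroblasts at 27.34 CPM, and Fosl1 and Atf3 are highest in the ECs.

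Fos encodes the founding partner of Jun in AP-1 (ENSMUSG00000021250, chr12:85473890-85477273). It was read at 113.8, 149.1 and 116.1 CPM in heart fibroblasts, 194.4, 199.9 and 181.2 in heart iECs and 74.56, 94.3 and 84.49 in heart ECs. In the lung it was at 193.4, 193.9 and 213.4 CPM in fibroblasts, 100.4, 118.6 and 95.98 in iECs and 36.38, 33.3 and 51.54 in ECs. Heart iECs lay above both other heart groups with no overlap, lung iECs lay between fibroblasts and ECs with no overlap, and lung fibroblasts (mean 200.2) and heart iECs (191.8) overlapped at the top. From the highest group to the lowest the difference was 4.95-fold.

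Egr1, a zinc finger factor (ENSMUSG00000038418), followed Fos. It was at 185.3, 207.1 and 180.0 CPM in heart fibroblasts, 376.6, 345.5 and 306.4 in heart iECs and 171.7, 194.4 and 156.3 in heart ECs. In the lung its values were 308.7, 263.8 and 313.3 CPM in fibroblasts, 199.2, 215.9 and 219.1 in iECs and 87.26, 80.25 and 75.09 in ECs. Heart fibroblasts, heart ECs and lung iECs formed a middle band in which neighbouring groups overlapped, and every lung EC library lay below every other library.

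Ier2, a short nuclear protein induced by growth factors (ENSMUSG00000053560, chr8:84661331-84662852), had its highest means in heart iECs (105.5 ± 5.65 CPM, SD, n = 3) and lung fibroblasts (101.5 ± 10.2), which overlapped, and its lowest in lung ECs (42.27 ± 2.41). Nr4a1, an orphan nuclear receptor (ENSMUSG00000023034, chr15:101254269-101274795), had the same ends: 17.57, 17.55 and 16.7 CPM in heart iECs, 16.26, 17.63 and 17.33 in lung fibroblasts and 6.031, 8.273 and 7.125 in lung ECs. Heart EC replicate 1 read 16.22 CPM of Nr4a1 against 10.43 and 10.33 in the other heart EC libraries. Fosb, a Fos paralog (ENSMUSG00000003545, chr7:19302696-19310051), was at 20.14, 21.1 and 12.6 CPM in heart iECs and below these in every other library, down to 4.417 in a lung EC library.

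Jun, which can pair with itself or with Fos proteins (ENSMUSG00000052684, chr4:95049034-95052222), was at 23.91, 29.37 and 28.73 CPM in heart fibroblasts, 166.7, 151.7 and 154.4 in heart iECs and 103.3, 90.02 and 94.82 in heart ECs. In the lung its values were 85.03, 81.0 and 79.56 CPM in fibroblasts, 169.4, 173.1 and 195.1 in iECs and 133.6, 137.8 and 121.7 in ECs. No neighbouring groups overlapped, so the order from lung iECs (mean 179.2) through heart iECs, lung ECs, heart ECs and lung fibroblasts to heart fibroblasts held in all 18 libraries. Of Jun's 3189 exon bases, 232 are shared with the antisense transcript Junos, which was not analysed here.

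Junb, the paralog with weaker activation in classical assays (ENSMUSG00000052837, chr8:84974484-84978718), lay between 138.1 and 279.0 CPM in every library. Its group means ran from 260.3 in lung fibroblasts to 167.8 in lung ECs, and from the heart fibroblasts (228.6) downward every group overlapped the next. Lung iEC replicate 3 was at 217.8 CPM against 164.4 and 138.1 in replicates 1 and 2. Junb shares 173 of its 2301 exon bases with Prdx2 on the other strand, which was at 148.5 to 235.3 CPM in the 6 groups, and whether the libraries kept strand is not given in the sources used here.

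Fosl1, which encodes Fra-1, a Fos relative without a transactivation domain (ENSMUSG00000024912, chr19:5447547-5455946), was highest in native ECs, with 33.46, 35.09 and 23.04 CPM in the lung and 34.01, 20.75 and 26.65 in the heart. Lung iECs were at 12.61, 11.04 and 17.84 CPM and lung fibroblasts at 11.22, 7.472 and 8.619. Heart iECs (3.061, 2.544 and 3.453 CPM) and heart fibroblasts (1.827, 2.421 and 2.662) were lowest. The ECs of both organs overlapped each other and no other group, and the mean differed 13.3-fold between lung ECs and heart fibroblasts. Of the 2033 exon bases of Fosl1, 1163 are shared with Ccdc85b on the other strand, so unstranded reads there could be given to either gene. Ccdc85b stayed between 20.26 and 27.04 CPM on group average, and its log2 difference between heart ECs and heart fibroblasts was 0.03 ± 0.16 (adjusted p = 0.913).

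Atf3 (ENSMUSG00000026628, chr1:191170296-191218039) had a similar order and more spread. It was at 42.46, 48.99 and 14.54 CPM in lung ECs, 16.62, 9.221 and 14.38 in heart ECs, and 7.681, 7.302 and 15.0 in lung iECs. It lay at or below 6.584 CPM in all lung fibroblast, heart iEC and heart fibroblast libraries. The lung EC group was wide because replicate 3 read like the heart ECs, and the lung iEC group because replicate 3 read about as high as that library.

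Ier3, a regulator of cell survival and a known NF-kB target (ENSMUSG00000003541, chr17:35821684-35822923), was lowest in heart fibroblasts (42.65, 47.69 and 46.88 CPM) and had its highest mean in lung ECs (176.0, 192.8 and 92.05). Heart ECs were at 110.9, 97.98 and 100.1 CPM and heart iECs at 94.37, 111.5 and 88.31, 2 groups that overlapped. Lung fibroblasts were at 68.88, 54.27 and 56.14 CPM and lung iECs at 70.6, 48.97 and 162.2, so that the lung iEC group reached from below the fibroblasts into the range of the ECs.

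**Figure D2:**
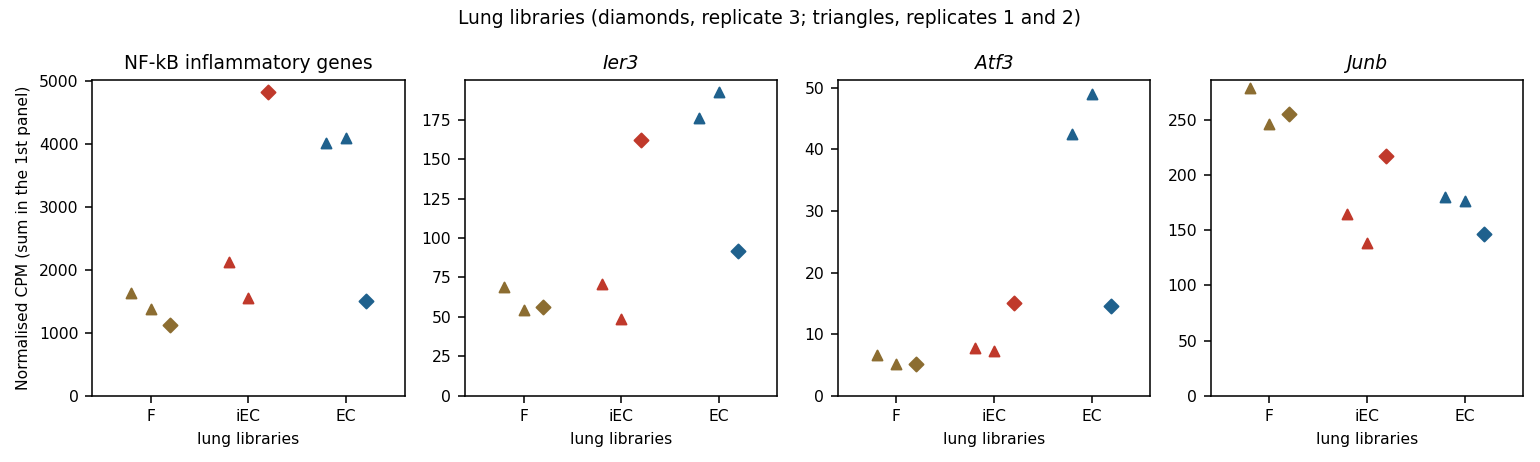
The 9 lung libraries, with the summed level of 14 NF-kB inflammatory genes and the levels of Ier3, Atf3 and Junb (y axes, TMM-scaled CPM from 0; x axis, fibroblasts F, iECs and ECs; diamonds, replicate 3; triangles, replicates 1 and 2). Replicate 3 of the lung ECs is the lowest of its group in all 4 panels and replicate 3 of the lung iECs the highest of its group.

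The spread of these genes moved with that of inflammatory genes. The summed level of 14 NF-kB inflammatory genes (among them Ccl2, Cxcl1, Icam1 and Tnf) was 4006, 4085 and 1509 CPM in lung ECs and 2128, 1547 and 4819 in lung iECs. Replicate 3 of the lung ECs deviated from its group mean by -1.10 (log2) in Atf3, -0.67 in Ier3 and -0.38 in Fosl1. Replicate 3 of the lung iECs deviated by 0.66 in Atf3, 0.98 in Ier3, 0.40 in Fosl1 and 0.35 in Junb. Jun and Egr1 deviated by at most 0.13 in either library, while Fos deviated by 0.38 in the lung EC library, in the other direction. In endothelial markers they read 2831 and 2297 CPM, against 2788 to 2871 and 1971 to 2064 in the other libraries of their groups, and in epithelial markers 309.0 and 7.186, like their groups. Their fibroblast markers were at 10530 CPM, against 8468 and 9256 in the other lung ECs, and 13230, against 17820 and 16790 in the other lung iECs. Their macrophage and leukocyte markers were at 8880 against 10030 and 10500, and at 4279 against 3855 and 2983. In the inflammatory sum and in the fibroblast and leukocyte markers, each library lay on the side of the other group. In smooth muscle markers they did too (2178 against 1656 and 1425 CPM, and 3247 against 3514 and 3942). In mesothelial markers they did not, at 323.7 against 206.6 and 213.1 CPM in lung ECs, and 41.04 against 41.96 and 56.61 in lung iECs. The part of cell makeup and handling in this was not tested.

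Per kilobase of annotated exon, the 10 genes took different ranks in fibroblasts and ECs. Junb was the highest in both fibroblast groups (99.35 CPM per kb in heart, 113.1 in lung), followed by Fos (53.71 and 85.13). In lung ECs Ier3 led with 135.8 CPM per kb, above Junb at 72.91 and Jun at 41.09, while Fos was at 17.18 and close to Atf3 (16.4) and Fosl1 (15.02). In heart fibroblasts the last 2 were at 1.327 and 1.133 CPM per kb. Fosb was the lowest of the set in 4 of the 6 groups, between 0.7679 and 1.187 CPM per kb in those, and Fosl1 the lowest in heart fibroblasts and heart iECs.

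In heart iECs against heart fibroblasts, 7 of the 10 genes were higher and 0 lower, where 26% of all tested genes were higher and 24.6% lower, and the median change of the 10 was 0.69 (log2) against 0.02 over all genes. Jun rose 5.77-fold (log2 2.53 ± 0.09, adjusted p = 1.11e-13). Fos rose 1.52-fold (0.60 ± 0.14, adjusted p = 0.00174), Egr1 1.8-fold (0.85 ± 0.10, adjusted p = 9.25e-07), Fosb 1.96-fold (0.97 ± 0.19) and Nr4a1 1.71-fold (0.78 ± 0.15). Ier2 rose 1.29-fold (0.37 ± 0.09). Ier3 rose 2.14-fold (1.10 ± 0.36, adjusted p = 0.0224), a call lost without any of the 3 heart fibroblast libraries or without heart iEC replicate 2 (adjusted p up to 0.0665 over the 6 libraries left out in turn). Junb (-0.07 ± 0.12), Fosl1 (0.40 ± 0.29) and Atf3 (0.57 ± 0.46) were not called.

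In lung iECs against lung fibroblasts, 2 genes were higher and 4 lower, where 25.9% and 24.7% of all genes were, and the median of the 10 was -0.14 (log2) against 0.00. Jun rose 2.19-fold (1.13 ± 0.09, adjusted p = 3.14e-09). Fos fell by 0.93 ± 0.14 (log2, adjusted p = 3.1e-05), Junb by 0.59 ± 0.12, Ier2 by 0.56 ± 0.09 and Egr1 by 0.48 ± 0.10 (adjusted p = 0.000457). Fosl1 rose 1.52-fold (0.61 ± 0.22, adjusted p = 0.0318) and was not called without lung iEC replicate 3, where the change was 0.38, nor without lung fibroblast replicate 2 or 3 (adjusted p up to 0.184), nor when the compared groups were fitted alone (0.0526). Nr4a1 (-0.29 ± 0.15), Fosb (0.01 ± 0.20), Atf3 (0.83 ± 0.41) and Ier3 (0.65 ± 0.36) were not called. Without replicate 3 of both lung iECs and lung ECs, Atf3 was at 0.41 and Ier3 at 0.000434, and 5 of the 10 were called, near the 47.9% of all genes called in that fit.

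In native ECs against fibroblasts, the same 4 genes were higher in both organs, Fosl1, Jun, Atf3 and Ier3, from a background of 24.2% higher in the heart and 29.3% in the lung. Fosl1 had the largest change of the set in the heart, 11.8-fold (3.56 ± 0.26, adjusted p = 8.14e-09), and was 3.36-fold higher in lung ECs (1.75 ± 0.22, adjusted p = 3.08e-06). Atf3 was 4.68-fold higher in heart ECs (2.23 ± 0.44) and 6.27-fold in lung ECs (2.65 ± 0.40). Jun was 3.52-fold higher in heart ECs (1.81 ± 0.09) and 1.6-fold in lung ECs (0.68 ± 0.08). Ier3 was 2.25-fold higher in heart ECs (1.17 ± 0.37) and 2.57-fold in lung ECs (1.36 ± 0.36). In the heart its call was lost without heart fibroblast replicate 1 or heart EC replicate 1 (adjusted p up to 0.0563). With replicate 3 of both lung ECs and lung iECs left out, the lung changes were 3.02 ± 0.19 for Atf3 and 1.63 ± 0.13 for Ier3.

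Among the genes lower in ECs the organs parted. In the heart only Fos was called lower (-0.58 ± 0.14, adjusted p = 0.00287), where 23.3% of all genes were lower. In the lung 6 of the 10 were lower, where 28.7% of all genes were: Fos fell by 2.31 ± 0.15 (log2, adjusted p = 5.54e-10), Egr1 by 1.87 ± 0.10 (adjusted p = 2.37e-11), Ier2 by 1.26 ± 0.10, Nr4a1 by 1.25 ± 0.15, Junb by 0.63 ± 0.12 and Fosb by 0.53 ± 0.21 (adjusted p = 0.0359). Fosb was not called without lung fibroblast replicate 2 or 3 or lung EC replicate 2 or 3 (adjusted p up to 0.14), nor under DESeq2 (0.0517), with no filter (0.0559) or with library totals alone (0.0961). Its call was also lost without replicate 3 of both lung ECs and lung iECs (-0.47, adjusted p = 0.0984). In heart ECs the same genes had changes of -0.13 ± 0.10 (Egr1), -0.06 ± 0.09 (Ier2), 0.30 ± 0.15 (Nr4a1), -0.07 ± 0.12 (Junb) and -0.30 ± 0.20 (Fosb). The lung EC libraries were also those with the highest summed macrophage and leukocyte markers, and heart ECs those with the highest mesothelial markers, of which 6 of 6 were higher than in heart fibroblasts. Both iEC and EC comparisons of an organ share its 3 fibroblast libraries.

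**Figure D3:**
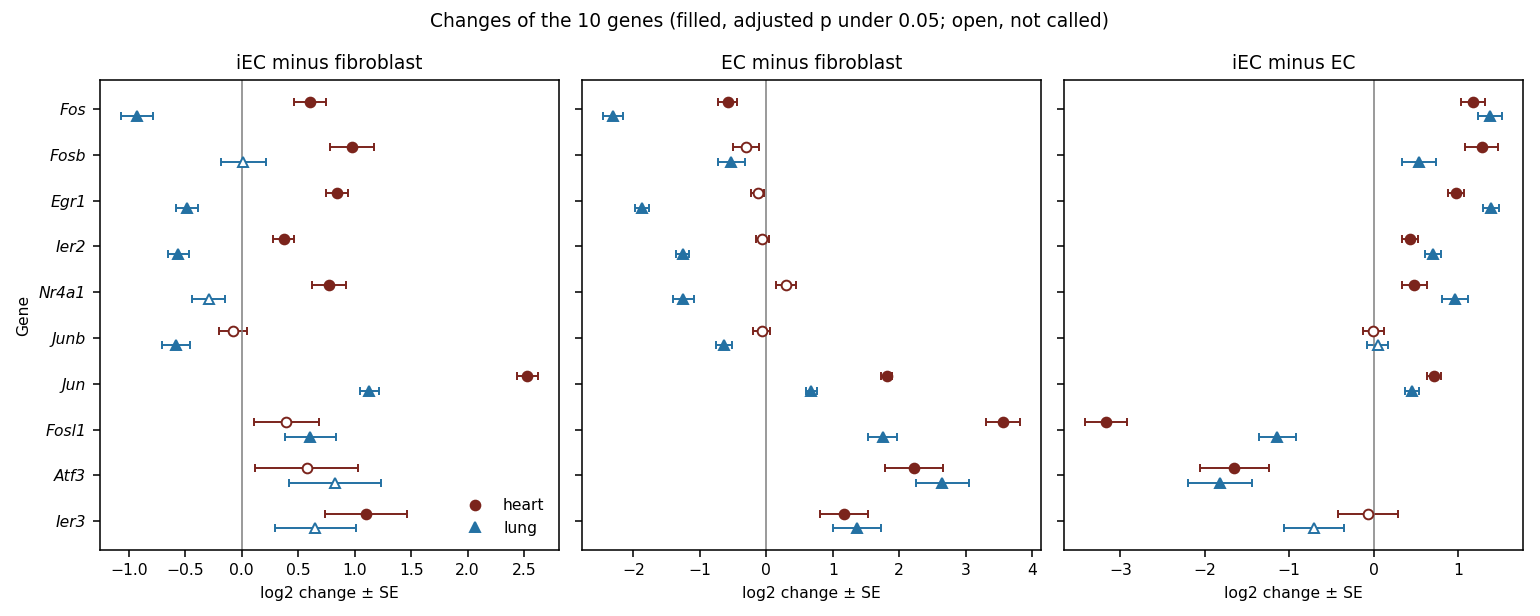
Log2 change ± SE of the 10 genes (y axis) between cell types of the same organ (x axes; left, iECs minus fibroblasts; middle, ECs minus fibroblasts; right, iECs minus ECs; circles, heart; triangles, lung; filled symbols, adjusted p under 0.05). In the left panel Fos, Egr1 and Ier2 lie on opposite sides of 0 in heart and lung, and in the right panel 8 genes are called on the same side in both organs.

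Against native ECs, the iECs of both organs gave the same calls: 6 genes higher, Fos, Fosb, Jun, Egr1, Ier2 and Nr4a1, and 2 lower, Fosl1 and Atf3. In the heart 24.5% of all genes were higher and 24.4% lower, and in the lung 22.2% and 23%. The share of all genes called alike in both organs was not counted. Fos was 2.27-fold higher in heart iECs (1.18 ± 0.14, adjusted p = 2.53e-06) and 2.6-fold in lung iECs (1.38 ± 0.15, adjusted p = 6.14e-07). Egr1 was 1.97-fold and 2.61-fold higher (0.98 ± 0.10 and 1.39 ± 0.10). Jun was 1.64-fold and 1.37-fold higher (0.71 ± 0.08 and 0.45 ± 0.08). Fosl1 was 8.99-fold lower in heart iECs (-3.17 ± 0.25, adjusted p = 1.13e-08) and 2.21-fold lower in lung iECs (-1.14 ± 0.22, adjusted p = 0.000319), and Atf3 was 3.15-fold and 3.54-fold lower (-1.65 ± 0.41 and -1.82 ± 0.38). Of the mesothelial markers, 5 of 6 were lower in heart iECs than in heart ECs (median -6.94) and 4 of 6 in the lung (median -3.23). In the lung 6 of 6 epithelial markers (median -5.92) and 12 of 13 macrophage and leukocyte markers were lower too. In the heart 3 of 6 epithelial markers were lower, and 5 of 13 macrophage and leukocyte markers were higher and 2 lower. In lung ECs against lung fibroblasts, where Fosl1 and Atf3 were higher, 4 of 6 mesothelial markers were lower. The part of these cells was not tested.

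Some of these calls were less secure. Nr4a1 in the heart (0.48 ± 0.15, adjusted p = 0.012) was not called without heart EC replicate 2 or 3 (adjusted p up to 0.0786), and rose to 0.74 without heart EC replicate 1, the high one. Fosb in the lung (0.54 ± 0.21, adjusted p = 0.0392) was not called without lung EC replicate 1, 2 or 3 or lung iEC replicate 1 or 3 (adjusted p up to 0.115). Nor was it called without replicate 3 of both lung groups (0.42, adjusted p = 0.198). Atf3 in the lung was not called when its groups were fitted alone (adjusted p = 0.0612; up to 0.00904 with each library left out). It was lower by 2.61 ± 0.22 (log2, adjusted p = 2.16e-08) without replicate 3 of both lung groups. Ier3 was not called in the lung with all libraries (-0.71 ± 0.36, adjusted p = 0.124). It was lower by 1.36 (log2, adjusted p = 0.000734) without lung iEC replicate 3, and by 1.63 (adjusted p = 1.81e-07) without replicate 3 of both lung groups. Junb differed by -0.00276 ± 0.12 in the heart and 0.05 ± 0.12 in the lung.

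Between organs, fibroblasts already differed. Lung fibroblasts had more of 6 genes and less of 0, where 24.6% of all genes were higher and 23.9% lower than in heart fibroblasts. Fosl1 was 3.95-fold higher (1.98 ± 0.27, adjusted p = 8.25e-06), Jun 2.99-fold (1.58 ± 0.09, adjusted p = 7.8e-11), Nr4a1 1.69-fold, Fos 1.58-fold (0.66 ± 0.14), Egr1 1.55-fold (0.63 ± 0.10) and Ier2 1.24-fold (0.32 ± 0.09). Ier2 was not called without heart fibroblast replicate 1 (0.23, adjusted p = 0.0691). Macrophage and leukocyte markers summed to 1359 CPM in lung and 267.9 in heart fibroblasts, mesothelial markers to 294.9 and 65.41, and smooth muscle markers to 1068 and 265.9. Endothelial markers (22.66 and 265.4 CPM) and cardiomyocyte markers (0.70 and 89.18) were lower in lung fibroblasts. The part of other cells in these differences was not tested.

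In iECs the direction turned for Fos, Egr1 and Ier2. Lung iECs had less of 5 genes and more of 2 than heart iECs, where 18.9% of all genes were higher and 18.9% lower. Fosb fell by 1.37 ± 0.20 (log2, adjusted p = 1.98e-05), Fos by 0.87 ± 0.14 (adjusted p = 0.0001), Egr1 by 0.70 ± 0.10 and Ier2 by 0.62 ± 0.09. Fosl1 was 4.57-fold higher (2.19 ± 0.24, adjusted p = 1.58e-06). Atf3 was 2.34-fold higher (1.22 ± 0.41, adjusted p = 0.0291) and not called without lung iEC replicate 3, where the difference was 0.81, or without heart iEC replicate 1 or 3 (adjusted p up to 0.16), or with no filter (0.0528). It was called without replicate 3 of both lung ECs and lung iECs (0.81 ± 0.21, adjusted p = 0.0056). Junb was 1.25-fold lower (-0.32 ± 0.12, adjusted p = 0.0476), a call lost without any of the heart iEC libraries or lung iEC replicate 1 or 2, with a difference from -0.52 (without lung iEC replicate 3) to -0.18 (without replicate 2) and adjusted p up to 0.242. It was also lost with RLE scaling (adjusted p = 0.0528), with either other filter, with library totals alone and with the 2 groups alone. Without replicate 3 of both lung ECs and lung iECs, Junb was called (-0.52 ± 0.09, adjusted p = 0.000168). Jun differed by 0.19 ± 0.08 (adjusted p = 0.0905) and Ier3 by -0.06 ± 0.36, the latter -0.72 (adjusted p = 0.0444) without lung iEC replicate 3.

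Lung ECs had less of 6 genes and more of 2 than heart ECs, where 24.2% of all genes were higher and 23.7% lower. Egr1 fell by 1.11 ± 0.10 (log2, adjusted p = 3.98e-08), Fos by 1.06 ± 0.15, Ier2 by 0.89 ± 0.10 and Nr4a1 by 0.79 ± 0.16. Atf3 was 2.63-fold higher (1.39 ± 0.38, adjusted p = 0.00696), a call lost with the 2 groups fitted alone (adjusted p = 0.0952; up to 0.0354 with each library left out). Atf3 differed by 1.77 ± 0.18 (adjusted p = 2.55e-07) without replicate 3 of both lung ECs and lung iECs. Jun was 1.36-fold higher (0.45 ± 0.08). Fosb (-0.63 ± 0.21) and Junb (-0.37 ± 0.12) were called lower, and both were lost without heart EC replicate 2 or lung EC replicate 3 (adjusted p up to 0.061 and 0.0847) and with library totals alone (0.0553 and 0.103). Without replicate 3 of both lung ECs and lung iECs, Fosb was not called (-0.57, adjusted p = 0.0548) and Junb was (-0.29, adjusted p = 0.0135). Fosl1, 3.95-fold apart between the fibroblasts, differed by 0.17 ± 0.21 between the ECs. Ier3 differed by 0.58 ± 0.36 (adjusted p = 0.204), and by 0.84 (adjusted p = 5.59e-05) without replicate 3 of both lung ECs and lung iECs.

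**Figure D4:**
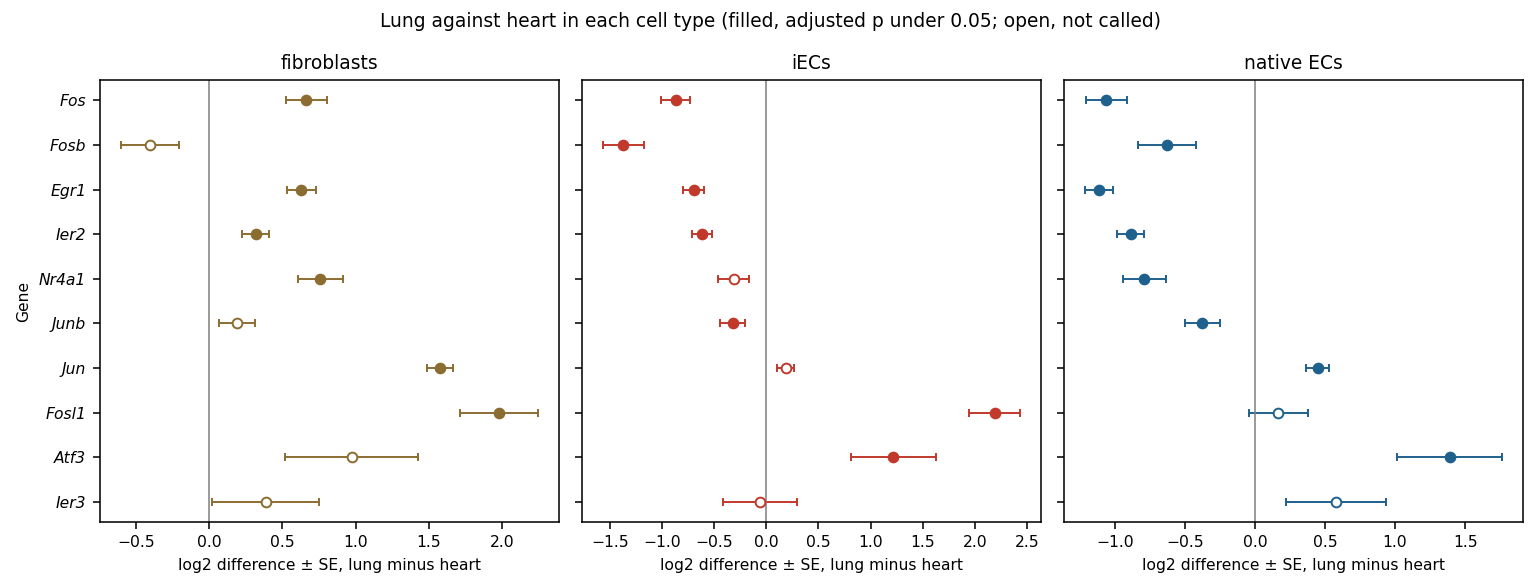
Lung minus heart log2 difference ± SE of the 10 genes (y axis) in fibroblasts, iECs and native ECs (x axes; filled symbols, adjusted p under 0.05; open symbols, not called). Fos, Egr1 and Ier2 lie above 0 in fibroblasts and below 0 in iECs and ECs, and Jun lies at or above 0.19 in every panel.

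The change from fibroblast to iEC differed between organs in 7 of the 10 genes, all in the direction of a smaller rise or a larger fall in the lung, where 12.6% of all genes differed that way and 12.6% the other way. The lung change minus the heart change was -1.53 ± 0.20 (log2) for Fos (adjusted p = 2.16e-05), -1.40 ± 0.12 for Jun (adjusted p = 1.55e-07), -1.33 ± 0.14 for Egr1 (adjusted p = 1.64e-06), -1.07 ± 0.21 for Nr4a1 and -0.93 ± 0.13 for Ier2. For Jun both organs rose, 5.77-fold from 27.34 CPM in the heart and 2.19-fold from 81.86 CPM in the lung. For Fos, Egr1 and Ier2 the change was a rise in the heart and a fall in the lung, each called in its own organ. Fosb differed by -0.96 ± 0.28 (adjusted p = 0.0164; 0.0517 without heart iEC replicate 2). Junb differed by -0.51 ± 0.18 (adjusted p = 0.0392), a call lost in 8 of the 12 fits that left out a library of these groups: heart fibroblast 1 or 2, heart iEC 1 or 2, lung fibroblast 1 or 3 and lung iEC 1 or 2 (adjusted p up to 0.103). It was also lost with no filter (0.0543). Without replicate 3 of both lung ECs and lung iECs, Junb differed by -0.71 ± 0.12 (adjusted p = 0.00023). Ier3 differed by -0.45 ± 0.51, and by -1.10 (adjusted p = 0.032) without lung iEC replicate 3. Each difference holds the fibroblast gap between organs within it. Lung fibroblasts started higher in 6 of the 10 genes: Fos, Jun, Egr1, Ier2, Nr4a1 and Fosl1, the last not among the 7 above. Fosb (-0.41 ± 0.20) and Junb (0.19 ± 0.12) were not called between the fibroblasts of lung and heart.

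The difference between ECs and fibroblasts also differed between organs in 7 genes, all lower in the lung, where 18.3% of all genes were lower and 16.2% higher. It was -1.81 ± 0.34 for Fosl1 (adjusted p = 0.000432), -1.74 ± 0.14 for Egr1 (adjusted p = 2.38e-08), -1.73 ± 0.20 for Fos, -1.55 ± 0.22 for Nr4a1, -1.20 ± 0.13 for Ier2 and -1.13 ± 0.12 for Jun. Junb (-0.56 ± 0.18) was lost without heart fibroblast replicate 1 or lung fibroblast replicate 1 (adjusted p up to 0.0536). It was -0.48 ± 0.12 (adjusted p = 0.00448) without replicate 3 of both lung ECs and lung iECs. Atf3 differed by 0.42 ± 0.59 (adjusted p = 0.629), and by 0.79 ± 0.28 (adjusted p = 0.0365) without replicate 3 of both lung ECs and lung iECs. This and the preceding comparison share both fibroblast groups.

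Across the 18 libraries, Fos, Egr1, Ier2 and Nr4a1 varied together, with Pearson's r of log2 CPM of 0.95 for Fos and Egr1, 0.93 for Fos and Ier2 and 0.89 for Egr1 and Nr4a1. Atf3 varied with Fosl1 (0.90) and Ier3 (0.82) and against Fos (-0.84). Jun stood aside, at -0.16 with Fos, 0.01 with Egr1 and 0.65 with Ier3. The libraries form 6 groups of 3, so these values mainly describe the order of the groups. On the deviations of each library from its own group mean, Fos and Egr1 were at 0.19, Fos and Ier2 at 0.20, Egr1 and Ier2 at 0.49 and Egr1 and Nr4a1 at -0.04. On the same scale Ier3 was at 0.93 with Junb and 0.85 with Atf3, and Fosl1 at 0.83 with Jun. Without replicate 3 of lung ECs and lung iECs, Fos and Egr1 were at 0.45, Fos and Ier2 at 0.30, Egr1 and Ier2 at 0.52 and Egr1 and Nr4a1 at -0.03, Ier3 at 0.88 with Junb and 0.79 with Atf3, and Fosl1 at 0.78 with Jun. Within groups Ier3 and Junb were the pair most alike in both readings.

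**Figure D5:**
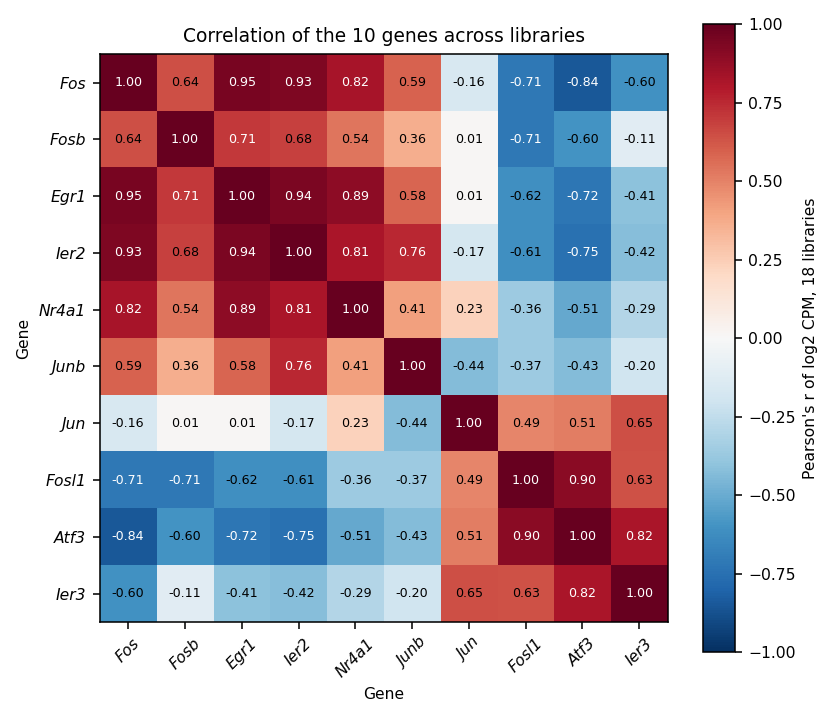
Pearson's r of log2 CPM for each pair of the 10 genes (both axes) across the 18 libraries, with colour from -1 (blue) to 1 (red). Fos, Egr1, Ier2 and Nr4a1 form a red block with r of 0.81 or more, and Fosl1, Atf3 and Ier3 are negative against them.

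The tested genes outside the set whose levels were most like each member, by r of log2 CPM over the 18 libraries, were Slit3 (0.967), Arxes2 and Gadd45g for Fos, and Slc1a4 (0.954), Plxdc2 and Fam8a1 for Egr1. Gadd45g, a growth arrest and DNA damage gene, was at 84.32 CPM in heart iECs, 80.47 in lung fibroblasts and 27.97 in lung ECs. For Jun they were Serpinb6b (0.978), Wsb1 and Tubb2b, for Fosl1 Abi3 (0.976), Sema6b and Fscn1, and for Atf3 Olr1 (0.966), Riox2 and Eftud2. Olr1, a scavenger receptor for oxidised lipoprotein, was at 317.6 CPM in lung ECs, 106.4 in heart ECs, 49.87 in lung iECs and 13.7 in heart iECs. For Ier3 the closest were Ltv1 (0.928) and Ptpn12 (0.917), and for Ier2 Fkbp7 (0.953), Fam114a1 and P3h4. The closest genes of Fosb, Junb and Nr4a1 had r of 0.915 (Sun1), 0.878 (Vmn1r65, at 0.2824 to 1.806 CPM) and 0.911 (Prrc1). These orders are shared by group, and nothing is drawn from them about control.

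Genes around the set were read from lists of related factors, feedback genes and targets. Among 19 other immediate early factors tested, heart iECs had 7 higher and 9 lower than their fibroblasts (median -0.16, against 0.02 over all genes), and lung iECs had 2 higher and 11 lower (median -0.59, against 0.00). The shares of all genes were 26% and 24.6% in the heart and 25.9% and 24.7% in the lung. In the heart Egr3 (3.94 ± 0.33, from 0.4731 to 7.383 CPM), Egr2 (2.26 ± 0.20) and Nr4a2 (1.83 ± 0.25), paralogs of Egr1 and Nr4a1, rose with them, and Cebpb fell by 1.17 ± 0.22 (log2). In the lung Klf4 (-1.56 ± 0.16) and Bhlhe40 (-1.28 ± 0.08) were among those that fell, and Maff, a small Maf protein, rose (1.13 ± 0.11). For 9 of the 19 the lung change was below the heart change and for 0 above it, where 12.6% of all genes were below and 12.6% above. Egr3 was at -4.53 ± 0.44 and Egr2 at -2.08 ± 0.26. Of 10 other AP-1 and small Maf genes, 3 were higher and 2 lower in the heart and 5 and 2 in the lung. The heart counts were near the shares of all genes. Maff and Mafk led in both organs (Mafk 0.81 ± 0.06 and 0.43 ± 0.06).

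Genes upstream of the set had small median changes. Of 14 genes of the serum response and ternary complex route, 6 rose and 3 fell from heart fibroblasts to iECs (median 0.12), and 6 rose and 1 fell in the lung (median 0.11). Over all genes 26% rose and 24.6% fell in the heart, and 25.9% and 24.7% in the lung. Elk3, a ternary complex factor, was higher in both (0.91 ± 0.06 and 0.84 ± 0.06), as was Mrtfb, a cofactor of serum response factor (1.21 ± 0.12 and 0.83 ± 0.12). Srf itself was higher in the lung (0.55 ± 0.08).

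Feedback genes went both ways. Of 21 genes that damp the response, 8 rose and 6 fell from heart fibroblasts to iECs (median -0.10), and 7 rose and 8 fell in the lung (median 0.16). The shares of all genes were 26% and 24.6% in the heart and 25.9% and 24.7% in the lung. Dusp6, the phosphatase of ERK, rose from 42.02 to 198.6 CPM in the heart (2.24 ± 0.10) and from 55.05 to 156.9 in the lung (1.51 ± 0.10). Zfp36l1, an mRNA decay factor, fell by 1.75 ± 0.16 and 1.57 ± 0.16 (log2). Nab2, a corepressor of Egr1, fell in the lung (-1.42 ± 0.10) and its change differed between organs by -1.31 ± 0.14.

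Most early effector genes rose in both organs. Of 20, 11 rose and 1 fell from heart fibroblasts to iECs (median 1.68, against 0.02 over all genes), and 13 and 1 in lung iECs (median 1.13). The shares of all genes were 26% and 24.6% in the heart and 25.9% and 24.7% in the lung. Ptgs2, the inducible cyclooxygenase, went from 5.786 to 185.8 CPM in the heart (5.01 ± 0.40) and from 34.86 to 172.8 in the lung (2.31 ± 0.34). Hbegf, an EGF receptor ligand, rose by 3.49 ± 0.14 and 3.19 ± 0.14, and Gem, a small GTPase, fell by 4.76 ± 0.59 and 2.44 ± 0.54 (log2). In ECs against fibroblasts, 14 were higher and 0 lower in the heart, and 16 and 1 in the lung. Over all genes 24.2% were higher and 23.3% lower in the heart, and 29.3% and 28.7% in the lung.

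Most AP-1 target genes were lower in iECs than in ECs of both organs. Of 16, heart ECs had 12 higher and 0 lower than fibroblasts (median 1.83) and lung ECs 13 and 1 (median 2.56). The shares of all genes were 24.2% and 23.3% in the heart and 29.3% and 28.7% in the lung. In iECs against ECs, 1 was higher and 11 lower in the heart (median -1.72, against 0.01 over all genes) and 1 and 10 in the lung (median -1.24, against -0.01). Over all genes 24.5% were higher and 24.4% lower in the heart, and 22.2% and 23% in the lung. Without replicate 3 of both lung groups, 1 was higher and 13 lower in the lung (median -1.79), where 45.5% of all genes were called either way. Plau, the urokinase plasminogen activator, was at 33.18 CPM in heart ECs and 3.558 in heart iECs (-3.22 ± 0.20), and at 148.0 in lung ECs and 38.9 in lung iECs (-1.93 ± 0.17). Mmp3, stromelysin, was at 2043 CPM in heart ECs and 81.17 in heart iECs, and 2078 in heart fibroblasts. Mmp9, a gelatinase also made by macrophages, went the other way in the lung, at 112.4 CPM in iECs and 58.57 in ECs.

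Stress and inflammatory genes did not follow a common course. Of 15 integrated stress response genes (Ddit3, listed with 2 IDs, left out), 7 rose and 2 fell from heart fibroblasts to iECs (median 0.44), and 5 rose and 7 fell in the lung (median -0.14). For 9 of them the lung change was below the heart change and for 0 above it, where 12.6% of all genes were below and 12.6% above. Vldlr was at -1.93 ± 0.13 and Chac1, a glutathione-degrading enzyme, at -1.36 ± 0.20. Of 12 heat shock genes, 4 were higher and 4 lower in the heart and 3 and 4 in the lung, with Hspb1 lower in both (-1.04 ± 0.10 and -2.32 ± 0.11). Among all genes 26% were higher and 24.6% lower in the heart, and 25.9% and 24.7% in the lung. Of 14 NF-kB inflammatory genes, heart iECs had 12 lower and 1 higher than heart ECs (median -3.11), among them Ccl2 at 52.36 against 1367 CPM. In lung iECs against lung ECs, 1 was lower (Icam1, -1.62 ± 0.33) and 1 higher (Vcam1, 1.15 ± 0.28). Over all genes 24.4% were lower and 24.5% higher in the heart comparison, and 23% and 22.2% in that of the lung. Without replicate 3 of both lung groups 13 were lower and 1 higher (median -2.20, against -0.81 with all libraries), where 45.5% of all genes were called either way.

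Over all 11 comparisons, 79 of the 110 changes of the 10 genes were called, where 45% of all changes tested were (25.2% to 58.1% by comparison), and 63 of these were called in every other fit. All calls of Fos, Jun and Egr1 were, and 3 of 7 for Fosb, 2 of 6 for Junb, 3 of 6 for Atf3 and 1 of 3 for Ier3. The 11 comparisons share the same 6 groups, so 1 shifted group enters several of the 110 changes.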

How the data were processed

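Bulk mRNA was sequenced from 18 mouse libraries. The deposited table holds estimated counts per gene (expected counts) as whole numbers, and the submitters' processing notes list Salmon and DESeq2, without versions, and the build mm10. The quantification settings and whether strand was kept are not given in the sources used here. Columns were matched to samples by the descriptions in the labels, and symbols and coordinates were taken from GENCODE M21 (GRCm38).

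Those counts were tested with edgeR 4.0.16 under R 4.3.3: filterByExpr on the 6 groups (14864 genes), TMM scaling and robust quasi-likelihood fits over all 18 libraries, with 12 residual degrees of freedom and Benjamini-Hochberg adjustment within each comparison. The SE is the absolute log2 change over the square root of the F statistic. All 10 genes and the lists around them were chosen with earlier results of these data known, so the counts of calls in the set and in the lists are descriptions. Genes named from a list are up to 4 called ones per comparison with the largest change and at least 5 CPM in the higher group, plus 1 of the other direction. The 3 nearest genes were taken by Pearson's r of log2 CPM (prior count 2), leaving out clone, predicted and pseudogene symbols. For Ier3, 1 of them is not reported here. Within-group correlations were added after seeing the data.

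Alternatives tried were RLE scaling, DESeq2 1.42.0, no filter, a filter of 5 CPM in 3 libraries, a replicate block, the compared groups alone, each library left out, and, added after seeing the data, library totals alone and replicate 3 of lung EC and lung iEC left out together. The fit was tested on simulated counts. At these totals 1 count is worth 0.0421 to 0.0563 CPM before scaling.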

Additional observations from a re-analysis of the deposited data

Results flagged for a closer look

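The change of 14 gene and comparison pairs differed between organs by a test of the difference itself (edgeR's quasi-likelihood test of the lung change minus the heart change, adjusted p under 0.05). For iECs against fibroblasts the differences (log2) were -1.53 for Fos, -1.40 for Jun, -1.33 for Egr1, -1.07 for Nr4a1, -0.959 for Fosb, -0.932 for Ier2 and -0.511 for Junb. For native ECs against fibroblasts they were -1.81 for Fosl1, -1.74 for Egr1, -1.73 for Fos, -1.55 for Nr4a1, -1.20 for Ier2, -1.13 for Jun and -0.561 for Junb. The Junb values and that of Fosb were those lost when a library was left out.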

How the results depend on the processing

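No count of the 10 genes called moved by over 1.5 times under any alternative. Over all genes 1 count did: with library totals alone, 1787 genes were lower in lung than in heart iECs, against 2804. Of 110 changes, the same call and direction held for 106 under DESeq2, 109 under RLE scaling, 106 with no filter, 109 with the stricter filter, 101 with the compared groups alone and 95 with library totals alone. Under library totals alone, uncalled changes near 0 turned sign: Junb to 0.11 (heart iEC against fibroblast), 0.0424 (heart EC against fibroblast) and 0.0678 (heart iEC against EC), Ier2 to 0.0546 (heart EC against fibroblast), and Ier3 to 0.000999 (heart iEC against EC) and 0.0489 (lung against heart iEC). With each library left out, the range crossed 0 for Fosb (lung iEC against fibroblast, -0.121 to 0.132), Ier2 (heart EC against fibroblast, -0.143 to 0.016), Junb (heart iEC against EC, -0.0385 to 0.0434, and lung, -0.15 to 0.188), Ier3 (lung against heart iEC, -0.715 to 0.247) and the organ differences of Fosl1 (-0.015 to 0.381) and Atf3 (-0.163 to 0.435) in iECs and of Ier3 in ECs (-0.00667 to 0.455). With replicate 3 of both lung EC and lung iEC left out, Fosb turned to -0.0522 (lung iEC against fibroblast), Junb to -0.237 (lung iEC against EC), and the organ differences in iECs to -0.0143 for Fosl1 and -0.162 for Atf3. The cause of these turns was not tested.

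Replicate numbers did not pair the libraries: over the 15 pairs of groups, the deviations of same-numbered libraries correlated at -0.398 (lung EC and lung iEC, replicates 3) to 0.117, and no pair of groups had all 3 values over 0.1. A replicate block kept 108 of 110 changes on their side of the threshold and lost 2 Junb calls, lung against heart iEC (-0.327, adjusted p = 0.0663) and the organ difference in iECs (-0.515, adjusted p = 0.0587).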
